A study of Rattus norvegicus with 12 samples.

Results

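Whole lungs of rats given monocrotaline and then ferrostatin-1 (MCT-Fer-1) were set against lungs of control rats (Control), gene by gene, to describe what still differed from the control level in animals that had received ferrostatin-1. The 2 groups were taken by their titles and held 8 of the study's 12 RNA-seq libraries, 4 each, and 15257 of the 32883 genes in the count table passed a filter on low counts and were tested. The remaining 4 libraries, from rats given monocrotaline and the vehicle of ferrostatin-1 (MCT-Vehicle), are given beside the results. All 3 groups are labelled wild type and carry a time of 25 days, with no starting day stated. Dosing with ferrostatin-1 or vehicle lasted 10 days in the 2 monocrotaline groups. No injection of any kind is stated for Control, so that against Control the monocrotaline, the dosing and ferrostatin-1 itself cannot be told apart. The sources used here do not give strain, sex, age or dose. No label says that the 4 libraries of a group came from 4 separate rats, and p-values therefore measure the spread between these samples, which may be technical.

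Monocrotaline is a plant alkaloid that the liver turns into a reactive pyrrole, which binds DNA and protein in the first vessels it meets, those of the lung. Rats then lose normal endothelial function, remodel the walls of the pulmonary arteries and develop pulmonary hypertension, with inflammatory cells gathering around the vessels. Ferrostatin-1 traps lipid radicals and so blocks ferroptosis, a death of cells by iron-dependent peroxidation of membrane lipids that the enzyme Gpx4 and cystine import through Slc7a11 normally hold in check.

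Total counts ran from 16640022 to 18229992 in Control and from 11601929 (MCT-Fer-1 1) to 70627239 (MCT-Fer-1 4) in MCT-Fer-1. Levels below are CPM, counts scaled to TMM-corrected library sizes, and 3 counts, the floor used, correspond to 0.042 to 0.259 CPM. The lung markers Sftpc (surfactant protein C, 7483 to 16890 CPM over all libraries) and Ager (alveolar type 1 cells, 2014 to 3522 CPM) were abundant in each library. The first principal component (31.1% of the variance of log2 CPM) placed Control between -47.1 and -34.2, MCT-Fer-1 between 8.81 and 25.3 and MCT-Vehicle between 17.6 and 32.8. Control 4 and MCT-Vehicle 2 held heart-muscle transcripts, summing to 277 and 446 CPM over the heart-muscle list against 21.1 to 88.8 CPM in the other libraries.

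Against Control, MCT-Fer-1 lungs had more transcript of 28 of 29 cell division genes, 12 of 23 p53 targets, 12 of 14 mast cell genes and 15 of 23 macrophage genes. They had less of 8 of 20 general endothelial genes, among them the receptor Tek, and of the keratins Krt8, Krt18 and Krt19. Of the genes tested, 1017 were higher and 629 lower at an edgeR adjusted p below 0.05, which is 6.67% and 4.12% of them. Of these, 401 rose and 100 fell at least 2-fold. The values of the 4 libraries of one group lay wholly above those of the other in 2917 genes (19.1%), among them 1520 of the 1646 called. Genes named for the smallest p with at least a 2-fold change, or for the largest fold, were taken only from genes without overlap. For these genes, Tek, Dll4, Vegfd, Cd80, C1qa and Eda2r among them, the lack of overlap was fixed by the choice. The median log2 fold change over all genes tested was -0.004. Below, the 4 values of a group are those of its libraries 1 to 4 in order, and a value with ± is a log2 fold change against Control with its standard error (SE) from edgeR (n = 4 in each group). Both counts depended on single libraries. Without Control 4 there were 640 higher and 338 lower, without MCT-Fer-1 2 there were 664 and 313, and without MCT-Fer-1 3 there were 660 and 335. The genes called lower numbered 402 without Control 2 and 383 without Control 3.

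**Figure D1:**
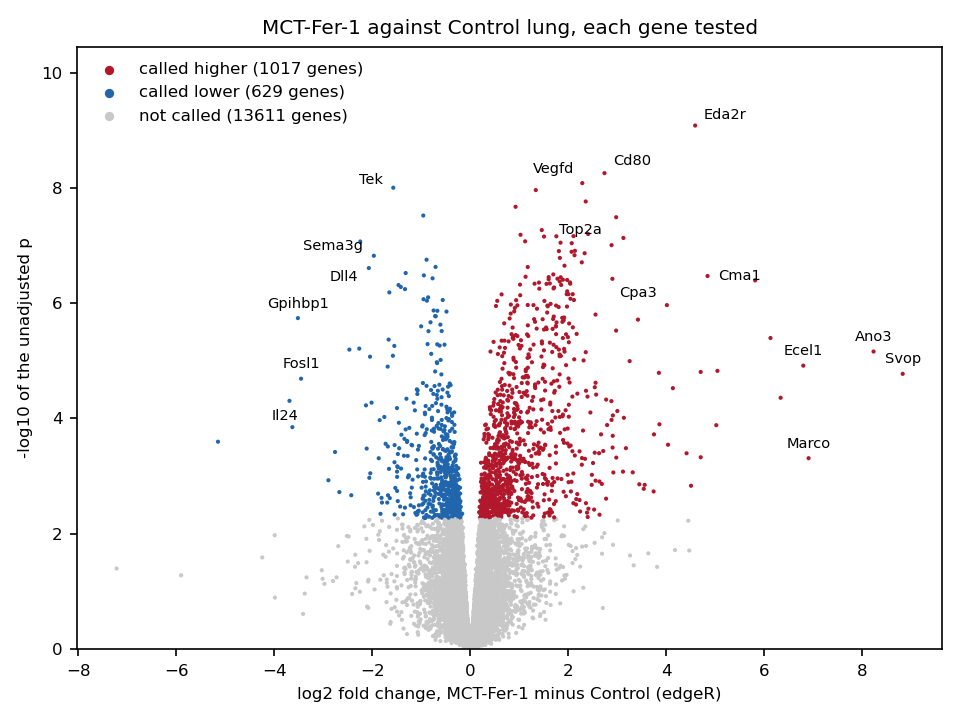
Log2 fold change of MCT-Fer-1 over Control (x axis) against -log10 of the unadjusted edgeR p (y axis) for each gene tested, with genes called higher in red, called lower in blue and not called in grey. The calls reach farther to the right than to the left, with 401 genes at least 2-fold higher and 100 at least 2-fold lower. Svop, Ano3 and Marco had no count in Control and Ecel1 had 2, so that their position on the x axis depends on the fit.

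In MCT-Vehicle, fitted in the same model against the same Control libraries, 1579 genes were higher (10.3%) and 1264 lower (8.28%). Of the 1646 genes called in MCT-Fer-1, 1357 were also called in MCT-Vehicle with the same sign, 82.4% of the calls of MCT-Fer-1 and 47.7% of those of MCT-Vehicle, and 289 were not called there. The 2 comparisons share their controls, and this count is not evidence independent of either. The direct test of MCT-Fer-1 against MCT-Vehicle called 0 genes (0%) by edgeR, with a smallest adjusted p of 0.114 and 1835 genes at an unadjusted p below 0.05. DESeq2 called 237 genes there and limma voom with quality weights 0. A gene that passed against Control in only 1 of the monocrotaline groups is therefore not shown by edgeR to differ between them.

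Part of the genes of the blood vessel lining fell in MCT-Fer-1 lungs. Of 20 tested members of the general endothelial list, 8 fell (Tek, Clec14a, Sox17, Sox18, Lyve1, Calcrl, Ushbp1 and Ptprb) and 2 rose (Emcn and Mmrn2), with a median log2 fold change of -0.34. Tek (ENSRNOG00000008587), the angiopoietin receptor TIE2 that keeps endothelium quiescent, read 523, 568, 580.2 and 543 CPM in Control 1 to 4 and 224, 153, 169 and 199.6 CPM in MCT-Fer-1 1 to 4. All 4 MCT-Fer-1 values lay below every Control value (-1.57 ± 0.12, edgeR adjusted p = 3.33e-05), beside -1.95 ± 0.12 in MCT-Vehicle. Clec14a (ENSRNOG00000022697), a lectin-like receptor of endothelium, read 644, 693, 680.4 and 675 CPM in Control and 289.7, 208, 304 and 277 CPM in MCT-Fer-1, without overlap (-1.32 ± 0.14, edgeR adjusted p = 1.28e-04). Its value in MCT-Vehicle against Control was -1.83 ± 0.14, and DESeq2, not edgeR, called the difference of the 2 monocrotaline groups (adjusted p = 0.0266, and 0.206 by edgeR). The 2 members that rose were Emcn, an endothelial sialomucin, with 0.86 ± 0.14 (edgeR adjusted p = 0.00192), and Mmrn2, an endothelial matrix glycoprotein, with 0.48 ± 0.09. The summed level of the list was 7930 to 8460 CPM in Control and 5440 to 7150 CPM in MCT-Fer-1. In bulk tissue, fewer endothelial cells and less RNA per cell cannot be told apart.

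The reduced vessel genes included several of arterial and Notch identity. Of 13 arterial members tested, 4 fell (Efnb2, Dll4, Hey1 and Sox17) and 1 rose (Fbln5, which also belongs to the elastic fibre), with a median of -0.14. Dll4 (ENSRNOG00000014011), the Notch ligand of arterial and tip endothelium, stood at 123, 126, 119 and 119.6 CPM in Control and at 31, 28.6, 27.5 and 29 CPM in MCT-Fer-1. Both groups were tight and far apart, with -2.07 ± 0.20 (edgeR adjusted p = 1.11e-04) and -2.21 ± 0.20 in MCT-Vehicle. Notch1, a receptor for Dll4, fell by a smaller step from 290.1, 222, 242 and 207 CPM to 195, 131, 157 and 144 CPM (-0.62 ± 0.13, edgeR adjusted p = 0.00993). Hey1, a transcriptional target of Notch, fell from 26.8, 25.6, 20.6 and 23.6 to 10.7, 7.88, 9.12 and 11 CPM (-1.32 ± 0.25, edgeR adjusted p = 0.00502). Efnb2, the ephrin that marks arteries, had a log2 fold change of -1.5 ± 0.25 and Sema3g, a semaphorin secreted by arterial endothelium, one of -1.97 ± 0.19, from 448, 438, 485 and 517 CPM to 134, 93.8, 127 and 127 CPM. Neither gene's groups overlapped, which for Sema3g was a condition of its choice.

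Capillary genes were mixed, with 4 of 16 members lower (Gpihbp1, Tmem100, Hpgd and Plvap) and 3 higher (Apln, Kitlg and Sgk1), and a median of 0.09. The 3 higher calls dropped to 1 when Control 1, Control 2, Control 4 or MCT-Fer-1 3 was left out. Gpihbp1 (ENSRNOG00000007475), which holds lipoprotein lipase on the capillary surface, had the largest fall of them, from 83.8, 82.2, 76.1 and 45.4 CPM to 6.21, 5.44, 4.73 and 8.35 CPM. Each MCT-Fer-1 library held less than any Control library, although Control 4 was lower than the other 3, and the log2 fold change was -3.52 ± 0.40 (edgeR adjusted p = 2.61e-04) beside -3.92 ± 0.41 in MCT-Vehicle. Tmem100, an endothelial membrane protein downstream of BMP9 and ALK1, fell from 612, 593, 524 and 471 CPM to 196, 149.8, 204 and 151 CPM (-1.65 ± 0.18, edgeR adjusted p = 1.53e-04). Plvap, which forms the diaphragms of fenestrae and caveolae, fell from 855 to 880.5 CPM in Control to 347 to 534 CPM (-0.89 ± 0.14). Gpr182, an atypical chemokine receptor of endothelium, fell from 133 to 143 CPM to 44.8 to 60.9 CPM (-1.33 ± 0.14). None of these 4 genes overlapped between the groups, which for Gpihbp1, Tmem100 and Gpr182 was a condition of their choice. Epas1, the hypoxia-inducible factor HIF-2alpha that is abundant in lung endothelium, fell from 3617 to 4042 CPM to 1966 to 2753 CPM (-0.72 ± 0.11, edgeR adjusted p = 0.00107).

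Of 9 lymphatic members, 4 rose (Prox1, Ccl21, Mmrn1 and Reln) and 1 fell (Lyve1), with a median of 0.69. Prox1, the master transcription factor of lymphatic endothelium, read 1.43, 2.21, 2.71 and 2.19 CPM in Control and 4.74, 6.91, 5.37 and 4.05 CPM in MCT-Fer-1, without overlap (1.30 ± 0.26, edgeR adjusted p = 0.00775). Ccl21, the chemokine by which lymphatics draw in dendritic cells, rose by 1.39 ± 0.27 from 119, 74.7, 70.7 and 92.9 CPM to 184, 380, 171 and 204 CPM, and MCT-Fer-1 2 stood above the other 3. Reads of Ccl21 may be shared with near-identical copies. Vegfd (ENSRNOG00000003587), a ligand of the lymphatic receptor VEGFR3, was one of the most clearly raised genes of all, from 8.79, 8.14, 11.3 and 8.46 CPM in Control to 33.1, 53.8, 49.8 and 41.7 CPM in MCT-Fer-1. Its groups did not overlap (2.29 ± 0.17, edgeR adjusted p = 3.33e-05), beside 1.75 ± 0.17 in MCT-Vehicle. In the wider list of angiogenic ligands and receptors, 3 of 26 rose (Vegfd, Vegfc and Apln) and 5 fell (Tek, Dll4, Notch1, Flt1 and Pdgfa), with a median of 0.05. In that list 1 rose and 4 fell without Control 2 or without MCT-Fer-1 3, and 3 rose and 3 fell without MCT-Fer-1 2.

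**Figure D2:**
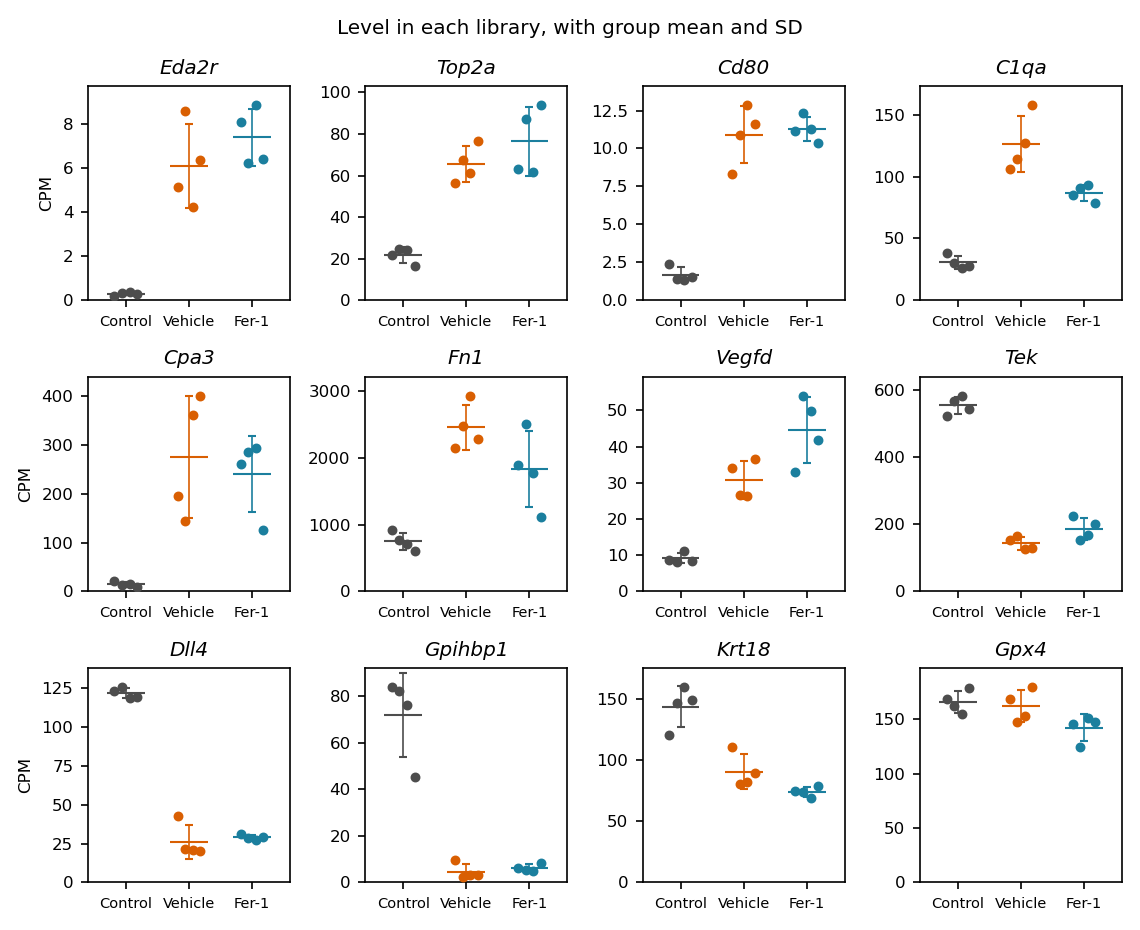
CPM of 12 genes (y axis, starting at 0, its own scale in each panel) in the 4 libraries of each group (x axis), with lines at the group mean and bars of 1 SD. Tek, Dll4, Gpihbp1 and Krt18 lie lower and Eda2r, Top2a, Cd80, C1qa, Cpa3, Fn1 and Vegfd higher in each MCT-Fer-1 library than in any Control library. Gpx4 also lies lower in each MCT-Fer-1 library, by a small step that was not called.

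In the BMP, activin and TGF-beta pathway, which restrains vascular growth through BMP receptors and promotes matrix through TGF-beta receptors, 6 of 32 members fell (Smad6, Id3, Bmp6, Inhbb, Acvrl1 and Smad7) and 2 rose (Tgfbr1 and Tgfbr2), with a median of -0.03. Among ligands, Inhbb, the activin B subunit, fell from 80.3, 92.6, 87.5 and 82.8 CPM to 52.4, 47, 49.4 and 59.7 CPM (-0.72 ± 0.09, edgeR adjusted p = 2.53e-04), and Bmp6 fell from 75.5 to 90.6 CPM to 38.9 to 58.8 CPM (-0.77 ± 0.16). Both ligands were lower in each MCT-Fer-1 library than in any Control library. Of the genes that BMP signals switch on, Id3, an inhibitor of differentiation factors, fell from 168, 146, 152 and 179 CPM to 82.3, 90.8, 94.1 and 93.9 CPM (-0.84 ± 0.14, edgeR adjusted p = 0.00301). Smad6, the inhibitory SMAD of the pathway, fell from 113, 112, 148 and 127 CPM to 68.9, 34.2, 57.5 and 37.5 CPM (-1.34 ± 0.26, edgeR adjusted p = 0.00663). The type II receptor Bmpr2, the main gene of heritable pulmonary hypertension, read 255, 249, 334 and 288 CPM in Control, 278, 225, 272 and 207 CPM in MCT-Fer-1 and 185, 168, 196 and 124 CPM in MCT-Vehicle. Its MCT-Fer-1 values overlapped Control and were not called (-0.20 ± 0.15, edgeR adjusted p = 0.443), while MCT-Vehicle was called lower (-0.74 ± 0.15, edgeR adjusted p = 0.00442). The direct difference of the monocrotaline groups, 0.54 ± 0.15, was not called by edgeR (adjusted p = 0.206) and was called by DESeq2 (adjusted p = 0.0325). The calls of Tgfbr1 and Tgfbr2 were both lost without Control 1, Control 4, MCT-Fer-1 2 or MCT-Fer-1 3. As a share, 2 of 32 is near the 6.67% of all genes tested that were called higher.

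Vasoactive genes, which set the tone of vessels, gave 7 lower (Npr3, Ace, Calcrl, Npr1, Ramp2, Ece1 and Slc6a4) and 1 higher (Ednra, the endothelin receptor of smooth muscle) of 27, with a median of 0.09. Without MCT-Fer-1 2, 2 of the list fell and 0 rose, and Ednra was also not called without Control 1, Control 2 or MCT-Fer-1 3. Npr3, the clearance receptor of natriuretic peptides, read 109.7, 91.5, 51.4 and 41.9 CPM in Control and 25, 21.1, 21.5 and 20 CPM in MCT-Fer-1 (-1.75 ± 0.30, edgeR adjusted p = 0.00368). Control spread over more than 2-fold, with Control 1 and Control 2 above the others, yet its lowest value exceeded each MCT-Fer-1 value. Ace, the angiotensin-converting enzyme of the lung endothelium, fell from 1161, 1198, 1160 and 1045 CPM to 982, 583, 694 and 623 CPM (-0.66 ± 0.15, edgeR adjusted p = 0.013), and MCT-Fer-1 1 lay nearest to Control.

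The largest share of called members in any list was that of DNA replication and mitosis, where 28 of 29 rose and 0 fell in MCT-Fer-1, with a median of 1.56, and 26 rose in MCT-Vehicle, with a median of 1.34. Over the alternatives run, between 26 and 28 rose, 27 of them without Control 4 and MCT-Vehicle 2. Replication and mitosis genes are switched on in waves as cells enter and pass through division. The list's median stood 1.26, 1.64, 1.28 and 1.78 log2 units above the Control mean in MCT-Fer-1 1 to 4, and between -0.309 and 0.184 in the Control libraries. Mcm5 (ENSRNOG00000014336), a subunit of the replicative helicase, rose from 11.7, 13.9, 13.6 and 9.82 CPM to 25.9, 29.4, 24.5 and 30.5 CPM (1.17 ± 0.12, edgeR adjusted p = 1.09e-04). Top2a (ENSRNOG00000053047), the topoisomerase that untangles chromosomes, rose from 22, 24.8, 24.3 and 16.3 CPM to 63.3, 87.1, 61.6 and 93.7 CPM (1.81 ± 0.17, edgeR adjusted p = 8.17e-05) beside 1.58 ± 0.17 in MCT-Vehicle. Kif11 (ENSRNOG00000056069), the motor that pushes spindle poles apart, rose from 7.42, 7.81, 9.76 and 5.33 CPM to 22.1, 31.6, 22.6 and 35.6 CPM (1.89 ± 0.20, edgeR adjusted p = 1.28e-04). The 3 genes stood higher in each MCT-Fer-1 library than in any Control library, and MCT-Fer-1 2 and MCT-Fer-1 4 were the highest of their group. Tpx2, a spindle assembly factor, had the largest fold of the list, 2.14 ± 0.20, with 5.68 to 10.3 CPM in Control and 26.4 to 39.4 CPM in MCT-Fer-1. Outside the list, the division-linked Shcbp1 (2.36 ± 0.19), the formin Diaph3 (2.11 ± 0.19), the scaffold Iqgap3 (1.76 ± 0.16), Arhgap11a (1.34 ± 0.10) and the transcription factor Mybl1 (2.41 ± 0.22) were among the 12 genes with the smallest p that rose at least 2-fold without overlap.

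Cell cycle promoters are known for 2 elements, the CCAAT box bound by NF-Y and the CHR element (letters TTTGAA), which holds the gene silent in resting cells. RefSeq's table for rat build GRCr8 gave a promoter for 21 of the 29 members, and the 250 bases before the start were searched on both strands. CCAAT was found in 17 of the 21 (81%), against 34% of all 33469 promoter entries, and TTTGAA in 8 (38.1%), against 16.2%. Each member counts with 1 entry, while the 33469 entries were not reduced to 1 per gene or to the genes tested. Both stood in 7 of the 21 (33.3%), against 5.87% of all promoters. A match of these short letters is a description of the sequence and not a binding site. The promoters of Top2a (chr10:84473094-84473343, minus strand), Kif11 (chr1:244536617-244536866, plus strand) and Mcm5 (chr19:13488563-13488812, plus strand) are those of the genes above with an entry, and Cdk1 (chr20:19265043-19265292, plus strand), the mitotic kinase, was added after its motifs and values were seen. They are written 5′ to 3′ on the strand of the gene, with matches to either motif, on either strand, in capitals.
Top2a: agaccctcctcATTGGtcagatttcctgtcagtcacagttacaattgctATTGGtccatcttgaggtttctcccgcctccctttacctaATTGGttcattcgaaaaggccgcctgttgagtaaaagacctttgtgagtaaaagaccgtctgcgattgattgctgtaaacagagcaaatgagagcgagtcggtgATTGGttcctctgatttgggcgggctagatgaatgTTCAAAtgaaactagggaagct
Kif11: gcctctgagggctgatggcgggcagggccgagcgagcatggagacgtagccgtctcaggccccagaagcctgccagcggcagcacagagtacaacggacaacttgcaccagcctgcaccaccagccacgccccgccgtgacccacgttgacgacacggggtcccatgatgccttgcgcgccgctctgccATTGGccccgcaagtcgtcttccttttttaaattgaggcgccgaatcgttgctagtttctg
Mcm5: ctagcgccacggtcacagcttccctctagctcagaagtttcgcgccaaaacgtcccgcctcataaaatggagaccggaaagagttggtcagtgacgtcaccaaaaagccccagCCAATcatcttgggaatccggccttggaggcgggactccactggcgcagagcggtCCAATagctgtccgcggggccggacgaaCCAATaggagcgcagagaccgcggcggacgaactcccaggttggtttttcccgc
Cdk1: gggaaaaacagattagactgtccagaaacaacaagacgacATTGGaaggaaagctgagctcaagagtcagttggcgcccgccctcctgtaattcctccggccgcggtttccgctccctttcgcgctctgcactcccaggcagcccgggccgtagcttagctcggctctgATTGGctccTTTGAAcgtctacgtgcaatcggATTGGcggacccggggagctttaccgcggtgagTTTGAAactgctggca
Top2a carries 4 CCAAT matches and 1 TTTGAA match, Mcm5 3 and 0, Kif11 1 and 0, and Cdk1 3 and 2.

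Targets of p53, the transcription factor that answers DNA damage, were raised beside the division genes: 12 of 23 rose and 1 (Tp53i11) fell, with a median of 0.55, against 13 and 1 in MCT-Vehicle. Eda2r (ENSRNOG00000013018), a receptor of the TNF family, had the smallest p of all genes tested. It read 0.22, 0.332, 0.361 and 0.296 CPM in Control, not far above the floor of 3 counts, and 8.1, 6.22, 8.85 and 6.43 CPM in MCT-Fer-1. No value of MCT-Fer-1 came near Control (4.59 ± 0.29, edgeR adjusted p = 1.27e-05), beside 4.32 ± 0.29 in MCT-Vehicle. Aen (ENSRNOG00000018421), a nuclease of the apoptotic response, rose from 20.8, 19.8, 18.9 and 22.3 CPM to 57.8, 47, 61.3 and 58.8 CPM (1.46 ± 0.13, edgeR adjusted p = 6.95e-05). Ccng1, cyclin G1, rose from 107, 138, 128 and 124 CPM to 256, 226, 297 and 299 CPM (1.12 ± 0.10, edgeR adjusted p = 6.95e-05). Rps27l, a ribosomal protein relative induced by p53, rose by 1.02 ± 0.09, and Ddias, a suppressor of apoptosis after DNA damage that was not on the list, by 2.98 ± 0.25. The 5 genes named here did not overlap between Control and MCT-Fer-1, which for Eda2r, Aen, Rps27l and Ddias was a condition of their choice.

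Mast cell genes had the largest list median, 2.68, with 12 of 14 higher and 1 lower (Gata2, a factor that endothelium also uses). The corresponding counts in MCT-Vehicle were 12 and 2. Of 20 symbols written for the mast cell list, 14 matched the count table. In MCT-Fer-1 against Control, limma voom called 10 of the 14 higher. Mast cells store proteases in granules and release them when the IgE receptor or the IL-33 receptor is engaged. Cpa3 (ENSRNOG00000011181), the granule carboxypeptidase, read 21.9, 13.6, 15.1 and 9 CPM in Control and 260, 284, 293 and 126 CPM in MCT-Fer-1 (4.01 ± 0.42, edgeR adjusted p = 1.93e-04). MCT-Fer-1 4 was the lowest of its group and still far above the highest Control library. Cma1 (ENSRNOG00000020563), a chymase, read 3.63, 1.61, 4.88 and 2.9 CPM in Control and 119, 96.5, 101 and 57.5 CPM in MCT-Fer-1 (4.84 ± 0.46, edgeR adjusted p = 1.28e-04). Mcpt2, another chymase, read 29.7, 8.75, 7.89 and 2.72 CPM in Control and 178, 258, 274 and 156 CPM in MCT-Fer-1 (4.13 ± 0.59, edgeR adjusted p = 0.00171), and Control 1 held more of it than the other Control libraries. Rat mast cell proteases form a family of close copies, so that reads may be shared between them. The IgE receptor beta chain Ms4a2 rose by 3.25 ± 0.44, from 2.54 to 6.49 CPM to 25.9 to 56.4 CPM. Il1rl1, the IL-33 receptor ST2, rose from 9.07, 8.2, 7.41 and 5.8 CPM to 29.5, 29.9, 29.6 and 19.6 CPM (1.82 ± 0.19, edgeR adjusted p = 1.28e-04), while its ligand Il33, an alarmin of epithelium and endothelium, fell from 349, 405, 392 and 423 CPM to 221, 257, 252 and 203 CPM (-0.75 ± 0.09, edgeR adjusted p = 2.18e-04). The summed level of the mast cell list was 400 to 447 CPM in Control and 666 to 1150 CPM in MCT-Fer-1.

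Macrophage genes rose in 15 of 23 and fell in 1 (Lyve1, shared with endothelium), with a median of 0.88, beside 18 and 1 and a median of 1.33 in MCT-Vehicle. Without Control 4, 9 rose, without MCT-Fer-1 3 10 rose, and without Control 4 and MCT-Vehicle 2 together 8 rose. Cd68, Mrc1, Trem2, Gpnmb and Siglec1 were among the 15. The complement subunit C1qa (ENSRNOG00000012807), made by tissue macrophages, read 38, 30.3, 26.3 and 27.9 CPM in Control, 85.3, 90.8, 93.3 and 78.6 CPM in MCT-Fer-1 and 106, 114, 127 and 157 CPM in MCT-Vehicle. The 3 groups did not overlap, and MCT-Fer-1 lay between the other 2. Against Control the log2 fold change was 1.51 ± 0.14 (edgeR adjusted p = 6.95e-05) in MCT-Fer-1 and 2.04 ± 0.14 in MCT-Vehicle. The direct difference of -0.54 ± 0.13 was not called by edgeR (adjusted p = 0.189) and was called by DESeq2 (adjusted p = 0.0182). The other chains of the same molecule, C1qb (1.46 ± 0.19) and C1qc (1.13 ± 0.16), rose against Control as well. Their direct differences were -0.43 ± 0.18 in C1qb and -0.59 ± 0.16 in C1qc, and edgeR called neither (adjusted p = 0.368 and 0.214). DESeq2 called that of C1qc (adjusted p = 0.038) and not that of C1qb (adjusted p = 0.264). The summed level of the macrophage list was 2090 to 2510 CPM in Control and 3250 to 4630 CPM in MCT-Fer-1. Folr2, a folate receptor of resident macrophages, rose from 4.45, 3.32, 3.31 and 2.9 CPM to 8.62, 15.8, 15.8 and 11.5 CPM (1.89 ± 0.25, edgeR adjusted p = 4.21e-04), and the transcription factor Maf rose by 0.84 ± 0.11. Marco, a scavenger receptor, had 0 counts in the 4 Control libraries and 0.259, 0.553, 0.756 and 0.853 CPM in MCT-Fer-1. Pooled over each group, it was at least 17-fold higher, with 3 counts over the Control group as the floor. Fabp4, a fatty acid binding protein of alveolar macrophages that capillary endothelium also makes, rose from 14.4, 12.3, 9.7 and 16.4 CPM to 39.3, 64.9, 64.6 and 35 CPM (1.95 ± 0.32, edgeR adjusted p = 0.00308). Complement genes as a list had 9 of 24 higher and 0 lower, with a median of 0.57, among them the pore component C7 (1.17 ± 0.16), with 288 to 370.2 CPM in Control and 511 to 844 CPM in MCT-Fer-1. The count of complement genes was 6 without Control 1, Control 4 or MCT-Fer-1 2, and 12 by DESeq2.

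Genes of antigen presentation were higher in 9 of 22 and lower in 0, with a median of 0.35, and in 5 of 22 without MCT-Fer-1 2. Cd80 (ENSRNOG00000001527), which gives T cells their second signal, read 2.42, 1.44, 1.32 and 1.54 CPM in Control and 11.1, 12.3, 11.3 and 10.4 CPM in MCT-Fer-1. Its MCT-Fer-1 values were close together and well above the highest Control value, with 2.74 ± 0.20 (edgeR adjusted p = 3.33e-05) and 2.69 ± 0.20 in MCT-Vehicle. Ctss, the protease that trims the invariant chain, rose by 1.1 ± 0.17. Of 14 dendritic cell genes, 5 rose (Xcr1, Clec9a, Irf8, Clec10a and Flt3) and 0 fell, with a median of 0.34, and 3 rose without Control 4 and MCT-Vehicle 2. Xcr1, the chemokine receptor of cross-presenting dendritic cells, read 2.69, 3.16, 2.59 and 1.95 CPM in Control and 9.22, 10.7, 10.5 and 7.34 CPM in MCT-Fer-1 (1.85 ± 0.20, edgeR adjusted p = 1.28e-04). Clec9a, a receptor of the same cells for dead-cell actin, rose by 1.51 ± 0.17 from 3.61 to 6.82 CPM to 13.4 to 16.9 CPM. Among chemokines and cytokines, 8 of 36 rose and 2 fell (Cx3cl1 and Il33), with a median of 0.29. Lif, a cytokine of the IL-6 family, rose from 2.69, 1.44, 2.47 and 1.83 CPM to 7.24, 4.66, 6.2 and 5.05 CPM (1.45 ± 0.24, edgeR adjusted p = 0.00236). Of the T and NK cell list, edgeR called 0 of 23, with 2 at an unadjusted p below 0.05, while DESeq2 called 1 lower and limma voom 1 higher and 2 lower. Klrk1, the activating receptor NKG2D, was called outside the list and is given below.

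**Figure D3:**
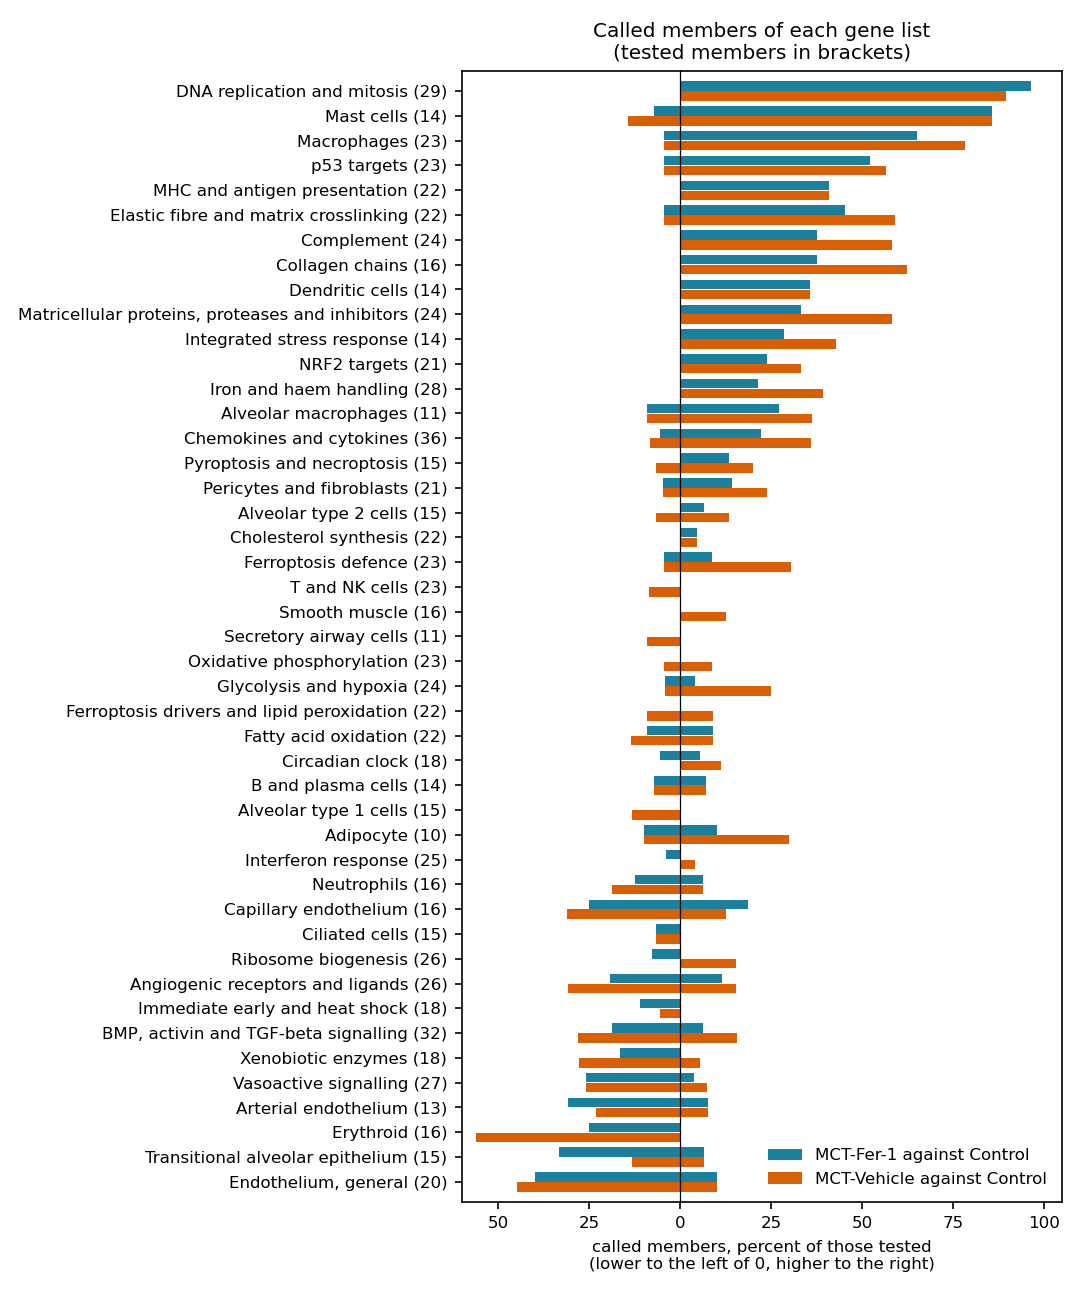
Share of the tested members of each gene list drawn that were called lower (left of 0) or higher (right of 0) against Control, in percent, with MCT-Fer-1 and MCT-Vehicle drawn side by side and the number of tested members in brackets. Lists with 9 or fewer tested members (lymphatic endothelium, platelets, heart muscle, skeletal muscle, and thymus and lymph node) are not drawn. In MCT-Fer-1, replication and mitosis (28 of 29) and mast cells (12 of 14) reach farthest to the right and general endothelium (8 of 20) and the transitional epithelium (5 of 15) farthest to the left.

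In each of the 3 matrix lists fewer than 1 in 2 members were called higher by edgeR as reported. Collagen chains were higher in 6 of 16 (Col8a1, Col4a1, Col5a1, Col4a2, Col3a1 and Col18a1) and lower in 0, with a median of 0.49, beside 10 higher and a median of 0.63 in MCT-Vehicle. Without Control 4 or without MCT-Fer-1 3, 3 of the chains were called, and without Control 4 and MCT-Vehicle 2 together, 2. In the other direction, 8 of 16 were called by DESeq2, limma voom and the fit of the 2 groups alone. The count was also 8 without Control 1 or without MCT-Vehicle 2. Col8a1, a short-chain collagen of vessel walls, rose from 10.8, 9.03, 7.77 and 10.2 CPM to 29.1, 25.6, 30.3 and 21.2 CPM (1.48 ± 0.21, edgeR adjusted p = 9.29e-04), and the basement membrane chain Col4a1 from 1397, 1225, 1439 and 1090 CPM to 2409, 2183, 2065 and 1699 CPM (0.70 ± 0.14, edgeR adjusted p = 0.00649). Neither overlapped between the groups. The fibrillar chain Col1a1 read 388, 439, 320.4 and 366 CPM in Control, 480.2, 580.2, 575 and 477 CPM in MCT-Fer-1 and 643, 1090, 711 and 766 CPM in MCT-Vehicle. Its values in MCT-Fer-1 lay above Control and below MCT-Vehicle without overlap, yet were not called against Control (0.48 ± 0.15, edgeR adjusted p = 0.0653). The difference of MCT-Fer-1 and MCT-Vehicle was -0.60 ± 0.15, not called by edgeR (adjusted p = 0.196) and called by DESeq2 (adjusted p = 0.0176).

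Elastic fibre and crosslinking genes were higher in 10 of 22 and lower in 1 (P4ha1, a prolyl hydroxylase), with a median of 0.42, and higher in 6 when Control 2, Control 3, MCT-Fer-1 1 or MCT-Fer-1 2 was left out. DESeq2, limma voom and the fit without MCT-Vehicle 4 each called 11 of the 22 higher. The call of P4ha1 was lost without Control 2, Control 4, MCT-Fer-1 1, MCT-Fer-1 3 or MCT-Fer-1 4. Eln, elastin itself, rose from 864, 863, 909 and 683 CPM to 1988, 1243, 1608 and 1514 CPM (0.94 ± 0.14, edgeR adjusted p = 9.44e-04). Fbln5, which anchors elastin to the scaffold, rose from 93, 91.4, 83.8 and 88.7 CPM to 188, 180.3, 150.5 and 159.9 CPM (0.92 ± 0.08, edgeR adjusted p = 4.64e-05). Within each group Fbln5 varied little, and both genes lay higher in each MCT-Fer-1 library than in any Control library. The crosslinking enzyme Loxl2 rose by 0.80 ± 0.12, from 16 to 22.8 CPM to 30.8 to 38 CPM. Of 24 matricellular proteins and proteases, 8 rose and 0 fell, with a median of 0.45 beside 14 higher and a median of 0.78 in MCT-Vehicle. Fn1, fibronectin, rose from 916, 775, 706 and 603 CPM to 1898, 2506, 1778 and 1119 CPM (1.28 ± 0.21, edgeR adjusted p = 0.00215), and MCT-Fer-1 4 lay closest to Control. Thbs2, a thrombospondin, rose from 6.6, 6.87, 6.32 and 5.21 CPM to 18.4, 33.6, 21.8 and 14.5 CPM (1.82 ± 0.28, edgeR adjusted p = 0.00164) and read 30.1, 44.2, 22.2 and 44.7 CPM in MCT-Vehicle. Mmp2, gelatinase A, rose by 0.80 ± 0.13 and the small proteoglycan Bgn by 0.66 ± 0.11. Smooth muscle genes, the other component of a thickened vessel wall, gave 0 calls of 16 by edgeR, with 1 at an unadjusted p below 0.05 and 1 higher by DESeq2 and by limma voom, and a median of 0.04. Among pericyte and fibroblast genes, 3 of 21 rose (Itga8, Dpt and Npnt) and 1 fell, Rgs5, a pericyte marker, from 53.3, 76.2, 50.8 and 50.2 CPM to 31.3, 24.6, 26.5 and 34.4 CPM (-0.98 ± 0.18, edgeR adjusted p = 0.00468). Over all genes tested, 6.67% were called higher and 4.12% lower.

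Genes of ferroptosis itself were read from a defence list and a list of drivers. Over all genes tested, 6.67% were called higher and 4.12% lower, and the calls of the defence list lay near these shares. Of 23 genes on the defence list, Slc7a11 and Dhcr7 rose and Keap1 fell, with a median of 0.03. Dhcr7 and Keap1 act against this defence, so that the list and its median mix opposite roles. Of 22 drivers edgeR called 0, with 5 at an unadjusted p below 0.05, while DESeq2 called 1 higher and 1 lower and limma voom 2 and 1. Gpx4 (ENSRNOG00000013604), the peroxidase that clears lipid peroxides, read 168, 162, 154 and 178 CPM in Control, 145, 124, 151 and 148 CPM in MCT-Fer-1 and 169, 148, 153 and 179 CPM in MCT-Vehicle. Each MCT-Fer-1 value lay below each Control value, and the difference was small and not called (-0.22 ± 0.08, edgeR adjusted p = 0.109). Slc7a11 (ENSRNOG00000010210), the cystine importer, read 0.879, 0.72, 1.02 and 0.237 CPM in Control and 2.76, 2.54, 8.62 and 2.1 CPM in MCT-Fer-1, and MCT-Fer-1 3 was well above the other 3. Its change of 2.48 ± 0.61 (edgeR adjusted p = 0.0219) was no longer called without Control 2, Control 4 or MCT-Fer-1 3, with edgeR adjusted p of 0.0592, 0.0639 and 0.0619. The change itself was 2.48 without Control 2, 2.19 without Control 4 and 1.76 without MCT-Fer-1 3, and limma voom, with 2.27, did not call it either (adjusted p = 0.0626). The calls of Dhcr7, which consumes the radical trap 7-dehydrocholesterol (0.54 as reported), and of Keap1, the inhibitor of NRF2 (-0.28), were each lost in 6 of the 12 fits that left out 1 library (Control 1, 2, 3 and 4 and MCT-Fer-1 1 and 3 for Dhcr7, and Control 1, 3 and 4 and MCT-Fer-1 2, 3 and 4 for Keap1). In those fits the change of Dhcr7 was 0.401 to 0.569 and that of Keap1 -0.306 to -0.23. Without Control 4 or without MCT-Fer-1 3 the defence list had 0 calls. The values for Acsl4, which loads membranes with oxidisable lipid, were 0.19 ± 0.26 (edgeR adjusted p = 0.726), with 168 to 233 CPM in Control and 149 to 287 CPM in MCT-Fer-1. Aifm2, the coenzyme Q reductase FSP1, had 0.17 ± 0.11, and Ptgs2, a transcript often read as a mark of ferroptosis, 0.14 ± 0.23, both with overlapping groups and without a call. The sign for Ptgs2 turned negative without MCT-Fer-1 2 (-0.078, edgeR adjusted p = 0.888).

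Iron handling genes rose in 6 of 28 (Cp, Heph, Lcn2, Slc40a1, Aco1 and Slc48a1) and fell in 0, with a median of 0.24, beside 11 in MCT-Vehicle. The count was 3 when Control 1, MCT-Fer-1 2 or MCT-Fer-1 3 was left out. The ferroxidases that load iron onto transferrin were among them. Cp, ceruloplasmin, rose from 200, 194, 192 and 165 CPM to 345, 356, 262 and 248 CPM (0.69 ± 0.13, edgeR adjusted p = 0.00649), and Heph, hephaestin, from 65.1, 55.4, 61.4 and 67.4 CPM to 107, 104, 87.6 and 87.4 CPM (0.63 ± 0.13, edgeR adjusted p = 0.00841). The siderophore binder Lcn2, which neutrophils and injured epithelium make, rose from 154, 284, 344 and 203 CPM to 1002, 713, 1814 and 651 CPM (2.08 ± 0.42, edgeR adjusted p = 0.00924). The 3 genes did not overlap between the groups, although Lcn2 varied widely within each. Haem oxygenase Hmox1 read 53.7, 92.1, 75.4 and 59.5 CPM in Control and 68.9, 223, 175 and 95.8 CPM in MCT-Fer-1. MCT-Fer-1 1 lay within Control, and the gene was not called (1.0 ± 0.35, edgeR adjusted p = 0.0972), whereas it was called in MCT-Vehicle (1.33 ± 0.35, edgeR adjusted p = 0.0227). The direct difference of the 2 groups was -0.33 ± 0.35 (edgeR adjusted p = 0.738). The transferrin receptor Tfrc (-0.28 ± 0.14) and ferritin heavy chain Fth1 (0.11 ± 0.12) were not called. Targets of NRF2, the antioxidant transcription factor, rose in 5 of 21 and fell in 0, with a median of 0.12. That count was 2 without Control 1, Control 3 or Control 4, 3 without Control 2 or MCT-Fer-1 2 and 1 without MCT-Fer-1 3. Ephx1, microsomal epoxide hydrolase, rose from 127, 111, 99.4 and 126 CPM to 219, 193, 241 and 233 CPM (0.94 ± 0.11, edgeR adjusted p = 1.76e-04), and did not overlap. It kept its call in each alternative run.

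Keratins known from simple and transitional epithelium were lower. In bulk lung the cells concerned are not seen, and fewer cells and less RNA per cell cannot be told apart. Of 15 genes of the transitional alveolar state, through which type 2 cells pass on the way to type 1 cells, 5 fell (Krt18, Krt8, Sfn, Krt19 and Hbegf) and 1 rose (Lgals3, which macrophages also make), with a median of -0.40, beside 2 lower, 1 higher and a median of 0.14 in MCT-Vehicle. The call of Lgals3 was lost without Control 1, Control 3, Control 4, MCT-Fer-1 2 or MCT-Fer-1 3. Krt18 (ENSRNOG00000047393) read 120.1, 146, 159 and 149 CPM in Control, 74.8, 73.7, 69 and 78.9 CPM in MCT-Fer-1 and 111, 80.7, 81.7 and 89.1 CPM in MCT-Vehicle (-0.95 ± 0.11 in MCT-Fer-1, edgeR adjusted p = 1.76e-04). Krt8, its pairing partner, read 393, 488, 503 and 436 CPM in Control and 277, 297, 276 and 287 CPM in MCT-Fer-1 (-0.68 ± 0.10, edgeR adjusted p = 8.16e-04). Both were lower in each MCT-Fer-1 library than in any Control library. Sfn (ENSRNOG00000033153), the epithelial 14-3-3 protein sigma, read 13.8, 5.37, 10.2 and 6.04 CPM in Control, 2.93, 4.05, 2.61 and 2.59 CPM in MCT-Fer-1 and 12.2, 15, 7.53 and 10.1 CPM in MCT-Vehicle. All MCT-Fer-1 values were below those of both other groups, which overlapped each other. The gene fell against Control (-1.54 ± 0.31, edgeR adjusted p = 0.00788) and was not called in MCT-Vehicle (0.35 ± 0.30). For the direct difference, -1.89 ± 0.31, the edgeR adjusted p was 0.114 and that of DESeq2 1e-05. Alveolar type 1 genes had 0 of 15 called by edgeR, DESeq2 and limma voom, with 1 at an unadjusted p below 0.05 and a median of -0.08, and secretory airway genes likewise 0 of 11, with 1 at an unadjusted p below 0.05. Of 15 type 2 genes 1, Ctsh, was called and rose, near the 6.67% of all genes tested that rose. The list's median was -0.15, and 2 of its 15 members had a log2 fold change above 0. DESeq2 called 2 type 2 genes higher and 1 lower, and limma voom 1 and 2. Leaving out Control 1, Control 2, Control 4, MCT-Fer-1 2 or MCT-Fer-1 3 gave 0 calls in this list. In the ciliated list 1 gene of 15, Tppp3, fell, with a median of 0.01, beside 4.12% of all genes tested that were called lower.

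Among genes called higher without overlap and with a mean of at least 1 CPM in MCT-Fer-1, leaving out genes known by an identifier alone, Svop, Ano3 and Ecel1 had the largest fitted folds, and all 3 were nearly absent from Control. Svop (ENSRNOG00000000693), a transporter-like protein of synaptic vesicles, had 0 counts in Control and 3.02, 1.66, 3.21 and 1.93 CPM in MCT-Fer-1, and pooled over the groups it was at least 52.1-fold higher. Ano3 (ENSRNOG00000004731), an anoctamin, likewise had 0 counts in Control and 1.47, 3, 1.29 and 0.783 CPM in MCT-Fer-1, at least 30.5-fold higher. Both bounds take 3 counts over the Control group as the floor. The libraries of MCT-Fer-1 all held these transcripts at low level, with Ano3 highest in MCT-Fer-1 2. Ecel1 (ENSRNOG00000019447), a membrane endopeptidase, had 2 counts in all of Control against 457 in MCT-Fer-1, a ratio of 121 (95% interval 33.4 to 1010, counting error only), and read 1.64, 7.93, 2.76 and 2.7 CPM in MCT-Fer-1. Among genes that fell, Serpina1, alpha-1-antitrypsin, went from 28.8, 37.7, 33.8 and 56.8 CPM to 11.6, 3.78, 6.66 and 6.89 CPM (-2.47 ± 0.32, edgeR adjusted p = 5.57e-04). Hpcal4, a neuronal calcium sensor, went from 1.21, 0.775, 2.35 and 1.06 CPM to 0.0862, 0.138, 0.265 and 0.224 CPM (-2.76 ± 0.58, edgeR adjusted p = 0.00945), close to the floor in MCT-Fer-1. Its value was below the floor of 3 counts in MCT-Fer-1 1 and at it in MCT-Fer-1 2. The potassium channel Kcnk2 fell from 12.2 to 16.8 CPM to 3.32 to 6.69 CPM (-1.67 ± 0.22, edgeR adjusted p = 4.42e-04). Also among the 12 genes with the smallest p that fell at least 2-fold without overlap were the Ras exchange factor Rasgef1a (-1.46 ± 0.16), the coiled-coil protein Tmcc2 (-1.42 ± 0.15), Mcf2l (-1.0 ± 0.13) and the dehydrogenase Sdr9c7 (-1.55 ± 0.21), with 3.6 to 7.87 CPM in MCT-Fer-1 against 13.4 to 19.8 CPM in Control for the last.

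**Figure D4:**
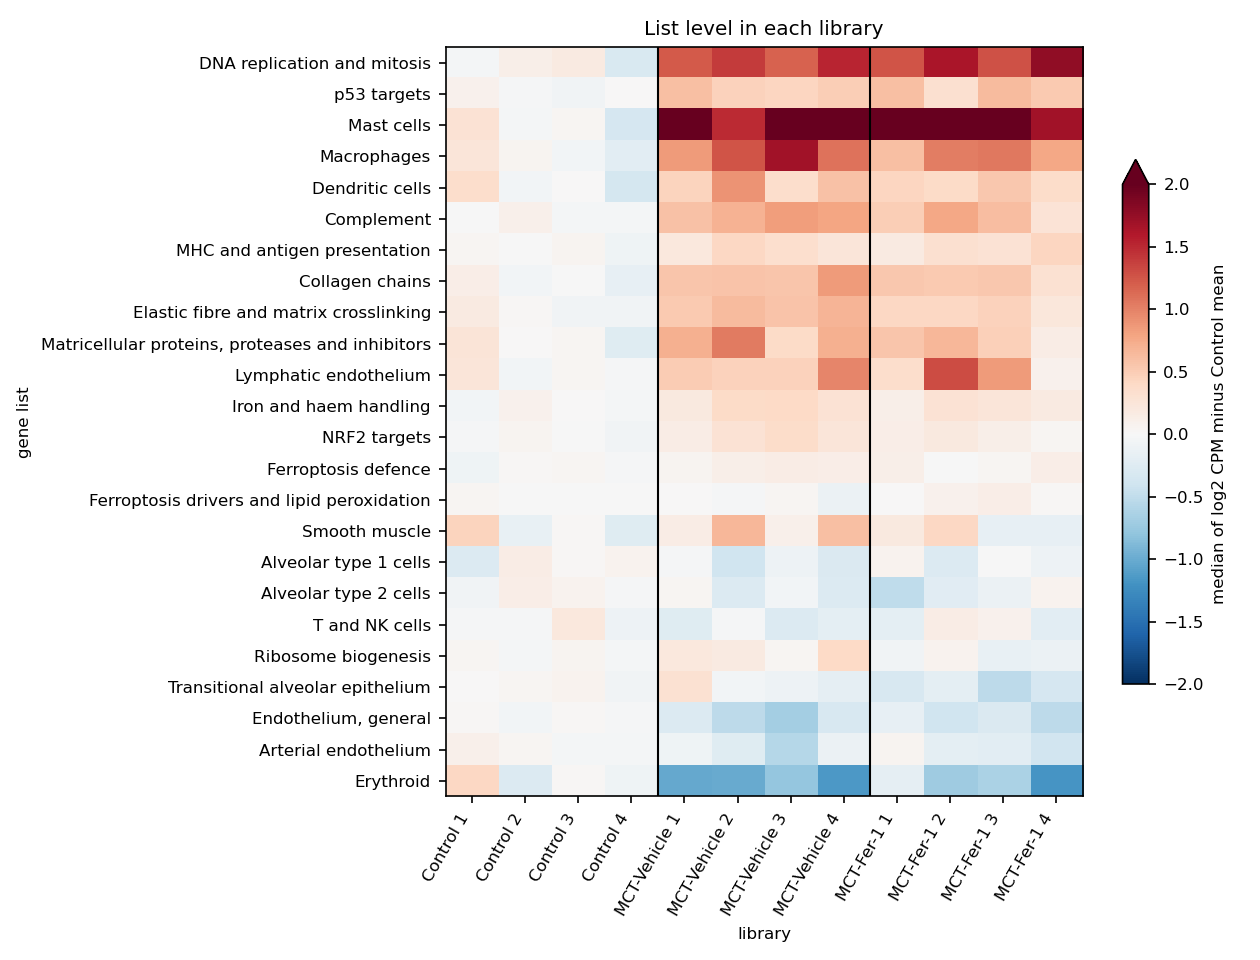
Median over the members of 24 gene lists (rows) of log2 CPM minus the mean of the Control libraries, in each of the 12 libraries (columns, groups split by lines), from blue (lower) through white to red (higher), with the colour scale ending at 2. Replication and mitosis, p53 targets, mast cells and macrophages are red in all 8 monocrotaline libraries, and general endothelium is blue in all 8.

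The 289 genes called in MCT-Fer-1 and not in MCT-Vehicle are given as values side by side, since edgeR called 0 genes in the direct comparison (1835 at an unadjusted p below 0.05, 237 by DESeq2, 0 by limma voom). Of the 289, 85 had an unadjusted p below 0.05 there, beside 1835 of all 15257 genes tested. The 289 were picked on values that the direct comparison also uses, so that a raised share is built in. The 6 higher with the smallest p were Elf5, Klrk1, Ckap5, Pcdh17, Acsbg1 and Map4k4. Klrk1 (ENSRNOG00000061739), the NKG2D receptor of cytotoxic lymphocytes, read 13.7, 13.4, 20.2 and 11.6 CPM in Control, 28.9, 35.4, 32.4 and 22.3 CPM in MCT-Fer-1 and 15.1, 15.8, 19.8 and 20.6 CPM in MCT-Vehicle. The MCT-Fer-1 values lay above both other groups (1.01 ± 0.19 against Control, edgeR adjusted p = 0.00438), and the direct difference was 0.74 ± 0.18 (edgeR adjusted p = 0.193, DESeq2 adjusted p = 0.0186). Elf5, an epithelial transcription factor, had the same arrangement, with 9.46, 10.5, 11.7 and 10 CPM in Control, 16.5, 15.3, 16.8 and 14.6 CPM in MCT-Fer-1 and 11.9, 12.8, 12.9 and 10.8 CPM in MCT-Vehicle (0.60 ± 0.10 against Control, edgeR adjusted p = 0.00315). The direct difference of Elf5 was 0.38 ± 0.10 (edgeR adjusted p = 0.208, DESeq2 adjusted p = 0.0461). Acsbg1, an acyl-CoA synthetase, read 3.9, 6.2, 5.84 and 4.79 CPM in Control and 24.6, 8.99, 14.3 and 11.4 CPM in MCT-Fer-1, with MCT-Fer-1 1 far above the rest of its group (1.5 ± 0.29, edgeR adjusted p = 0.0055). The microtubule polymerase Ckap5 (0.32 ± 0.06), the protocadherin Pcdh17 (0.90 ± 0.17) and the kinase Map4k4 (0.38 ± 0.07) rose by smaller or similar steps. Direct differences of Acsbg1, Ckap5, Pcdh17 and Map4k4 were not called by edgeR (adjusted p = 0.287, 0.268, 0.3205 and 0.291). DESeq2 did not call them either (adjusted p = 0.119, 0.0859, 0.184 and 0.133).

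The 6 lower with the smallest p were Fosl1, Il24, Kcne3, Nr1h2, Irf1 and Sfn. Fosl1 (ENSRNOG00000020552), the AP-1 subunit FRA1 that is induced in injured and migrating epithelium, read 10.2, 4.71, 18.1 and 8.52 CPM in Control, 1.03, 1.34, 0.719 and 0.769 CPM in MCT-Fer-1 and 6.79, 7.3, 1.42 and 5.57 CPM in MCT-Vehicle. Control varied widely with Control 3 the highest, and each MCT-Fer-1 value lay below all values of the other groups (-3.45 ± 0.52 against Control, edgeR adjusted p = 0.00131). The direct difference was -2.50 ± 0.51 (edgeR adjusted p = 0.125, DESeq2 adjusted p = 2.37e-04). Il24, a cytokine of the IL-10 family, read 3.96, 2.16, 6.87 and 2.19 CPM in Control, 0.172, 0.507, 0.416 and 0.112 CPM in MCT-Fer-1 and 1.41, 1.77, 0.895 and 3.73 CPM in MCT-Vehicle, again with MCT-Fer-1 lowest (-3.69 ± 0.61 against Control, edgeR adjusted p = 0.00241). In MCT-Fer-1 1 the value of Il24 lay below the floor of 3 counts, 0.259 CPM in that library. The direct difference of Il24 was -2.74 ± 0.61 (edgeR adjusted p = 0.158, DESeq2 adjusted p = 0.00209). Kcne3, a potassium channel subunit of epithelium, read 15.7, 13, 12.9 and 15.2 CPM in Control, 9.14, 7.37, 7.45 and 6.15 CPM in MCT-Fer-1 and 14.9, 14.5, 9.4 and 11.9 CPM in MCT-Vehicle (-0.93 ± 0.16 against Control, edgeR adjusted p = 0.00325). The direct difference of Kcne3 was -0.77 ± 0.16 (edgeR adjusted p = 0.132, DESeq2 adjusted p = 0.00214). Irf1, an interferon-induced transcription factor and the single call among 25 interferon response genes, fell by 0.50 and the oxysterol receptor Nr1h2 by 0.42 on the log2 scale. A single lower call of 25 is near the 4.12% of all genes tested that were called lower. Direct differences of Irf1 and Nr1h2 were called neither by edgeR (adjusted p = 0.279 and 0.356) nor by DESeq2 (adjusted p = 0.143 and 0.285).

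**Figure D5:**
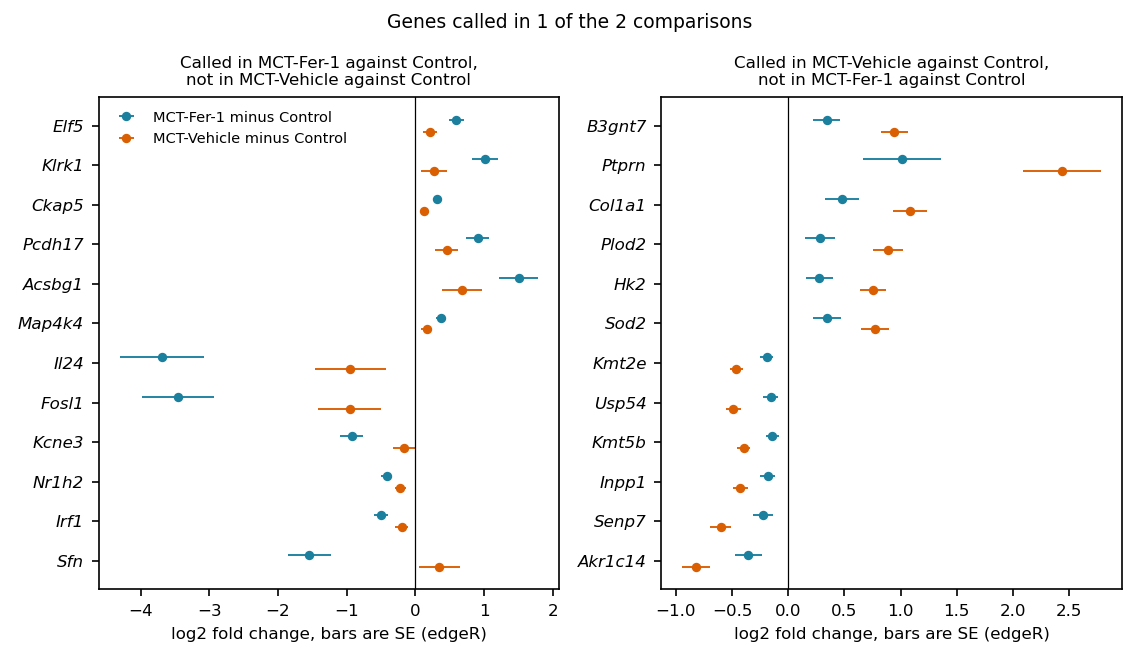
Log2 fold change against Control (x axis) with its SE as bars, for MCT-Fer-1 and MCT-Vehicle, of 12 genes called in MCT-Fer-1 and not in MCT-Vehicle (left) and 12 called in MCT-Vehicle and not in MCT-Fer-1 (right), 6 higher and 6 lower each, with the smallest p. The farthest apart are Fosl1 (-3.45 and -0.96), Il24 (-3.69 and -0.95) and Sfn (-1.54 and 0.35). The 2 sets of values share the Control libraries.

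Of the 1486 genes called in MCT-Vehicle and not in MCT-Fer-1, 550 had an unadjusted p below 0.05 in the direct comparison. Of all 15257 genes tested, 1835 did. The 1486 were likewise picked on values that the direct comparison uses, so that a raised share is built in. In MCT-Fer-1 the glycosyltransferase B3gnt7 read 27.9, 35.5, 35.7 and 26.9 CPM, beside 25.9, 27, 25.5 and 20.9 CPM in Control and 55.1, 47.4, 46.2 and 42.6 CPM in MCT-Vehicle, so that it lay below MCT-Vehicle and overlapped the top of Control (0.34 ± 0.12 against Control, edgeR adjusted p = 0.0925). Plod2, the lysyl hydroxylase that sets collagen crosslinks, read 35.2, 40.8, 41.2 and 34.6 CPM in MCT-Fer-1, 36.3, 28.2, 29.4 and 30.7 CPM in Control and 48.6, 68.4, 47 and 67.1 CPM in MCT-Vehicle (0.28 ± 0.13 against Control, edgeR adjusted p = 0.21). Values for MCT-Fer-1 overlapped Control in Plod2 and lay below those of MCT-Vehicle. Hexokinase Hk2 (0.28 ± 0.12 in MCT-Fer-1, 0.76 ± 0.12 in MCT-Vehicle), mitochondrial superoxide dismutase Sod2 (0.34 ± 0.12 and 0.77 ± 0.12) and the granule protein Ptprn (1.01 ± 0.35 and 2.44 ± 0.35) were likewise called in MCT-Vehicle and not in MCT-Fer-1. The direct difference of the monocrotaline groups was not called by edgeR in B3gnt7, Plod2, Hk2, Ptprn, Sod2 or Kmt2e (adjusted p = 0.114, 0.15, 0.189, 0.158, 0.229 and 0.131). DESeq2 called it in 5 of the 6 (adjusted p = 0.00159, 0.00625, 0.0228, 0.0049 and 8.24e-04 in B3gnt7, Plod2, Hk2, Ptprn and Kmt2e) and not in Sod2 (0.0609). Kmt2e, a chromatin regulator, read 179, 172, 180 and 179.8 CPM in MCT-Fer-1, 197, 198, 216 and 199 CPM in Control and 138, 153, 154 and 144 CPM in MCT-Vehicle. It lay between the other groups without overlap, just outside the threshold (-0.19 ± 0.06 against Control, edgeR adjusted p = 0.0507). Lifr, the receptor of Lif, was called in both comparisons, with 195, 240.4, 249.8 and 215 CPM in Control, 122, 109, 138 and 148 CPM in MCT-Fer-1 and 70.3, 87.7, 89.3 and 63.2 CPM in MCT-Vehicle. Its log2 fold change was -0.80 ± 0.13 (edgeR adjusted p = 0.0018) in MCT-Fer-1 and -1.54 ± 0.13 in MCT-Vehicle, with a direct difference of 0.74 ± 0.13 (edgeR adjusted p = 0.114, DESeq2 adjusted p = 1.41e-04). Tsen34, which belongs to the enzyme that cuts introns from tRNA, read 1.65, 3.32, 1.75 and 2.01 CPM in Control, 1.12, 1.29, 1.21 and 2.74 CPM in MCT-Fer-1 and 11.1, 9.03, 5.74 and 7.67 CPM in MCT-Vehicle. It was not called in MCT-Fer-1 (-0.40 ± 0.34, edgeR adjusted p = 0.514), and its direct difference was -2.34 ± 0.34 (edgeR adjusted p = 0.114, DESeq2 adjusted p = 3.08e-07).

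Other cell types and tissues in the samples were read from their marker lists. The erythroid list, a sign of the blood left in the lung, summed to 3420 to 5580 CPM in Control and 1740 to 3470 CPM in MCT-Fer-1. Of its 16 members 4 fell (Hba-a2, Alas2, Hbb and Ahsp), with a median of -0.69. The number went to 0 when Control 1, Control 4, MCT-Fer-1 2, MCT-Fer-1 3 or MCT-Fer-1 4 was left out, to 2 without Control 3 and to 7 without MCT-Fer-1 1. Reads of the haemoglobin genes may be shared among near-identical copies. Whether the amount of blood took part in the differences of other lists was not tested. Of the heart-muscle list 0 of 9 were called by edgeR, DESeq2 or limma voom, with 1 at an unadjusted p below 0.05. Neutrophil genes gave 1 higher (Lcn2) and 2 lower (Elane and Ngp) of 16, with a median of -0.36 and 4 members above 0. B and plasma cell genes gave 1 higher (Jchain) and 1 lower (Bank1) of 14, with a median of -0.07. Platelet genes gave 1 higher (Pf4) of 9, with a median of -0.25 and 4 members above 0. Over all genes tested, 6.67% were called higher and 4.12% lower. Oxidative phosphorylation had 0 of 23 called by edgeR, DESeq2 or limma voom, with 1 at an unadjusted p below 0.05 and a median of 0. Ribosome biogenesis had 2 lower (Polr1b and Dkc1) and 0 higher of 26, with a median of -0.08, beside 4 higher and a median of 0.22 in MCT-Vehicle. The mitochondrial share of counts was 3.17% to 3.37% in Control and 3.28% to 4.2% in MCT-Fer-1, and its part in the results was not tested.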

How the data were processed

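Gene counts of 12 whole rat lung libraries, 4 each of Control, MCT-Vehicle and MCT-Fer-1, were taken as deposited. The authors counted reads per gene, and per the file headers the table gives Ensembl identifiers, symbols, whole-number counts of each library and the authors' group means. The deposited means equalled the mean of the 4 libraries within 0.01 in all 32883 genes and were not used. The genome build was not given in the sources used here, nor were the aligner, the counting tool and whether counting used strand. Columns were assigned to samples by their titles.

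Genes were filtered with filterByExpr on the 3 groups (15257 kept, holding 99.9% of counts), scaled by TMM and fitted with edgeR 4.0.16 (limma 3.58.1, R 4.3.3) as a quasi-likelihood model over all 12 libraries with group means, 9 residual degrees of freedom and robust dispersion. MCT-Fer-1 against Control, MCT-Vehicle against Control and MCT-Fer-1 against MCT-Vehicle were tested with the quasi-likelihood F test, and p was adjusted by Benjamini-Hochberg over all genes. A gene was called at an adjusted p below 0.05. The standard error was computed as the absolute log2 fold change over the square root of F. The CPM values used TMM-scaled library sizes, a bound on a fold used 3 counts over the group, and 1 ratio has an exact 95% interval for counting error. The scripts were tested on simulated data.

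The groups, gene lists and genes were chosen with earlier results of these data known. Genes were named by p, by size of change, by membership (up to 4 called members of a list with the smallest p), by absence of a call in 1 of the comparisons, or as fixed names such as Gpx4 and Bmpr2. The choices by p with a 2-fold change and by size of change took only genes without overlap of MCT-Fer-1 and Control. Members that complete a count of 5 or fewer, with Emcn, Mmrn2, Cdk1 and the lists of called members, were named after their values were seen. Of 962 symbols on the lists, 926 matched the table, 8 of them through another name, and 878 were tested. Alternatives were other scalings, no filter, DESeq2 1.42.0, limma voom with quality weights, the 2 groups alone, a replicate block, thinning to the smallest total, a threshold of 0.01 and leaving out libraries. Promoters are the 250 bases before each start in RefSeq's GRCr8 table.

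Replicate numbers were checked for pairing through the correlation of deviations from the group means, given with the dependence on processing. The closest pair of libraries had a correlation of 0.982 and no pair was a duplicate by a chi-square test of its counts (at least 10.7 per degree of freedom).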

Additional observations from a re-analysis of the deposited data

Results flagged for a closer look

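In 10 of 238 groups of 4 libraries examined over the reported genes, 1 library stood apart from the other 3 by Dixon's test at the 95% level, which chance alone passes in about 1 group in 20.

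Among MCT-Fer-1 libraries, Slc7a11 read 8.62 CPM in MCT-Fer-1 3 against 2.1 to 2.76 CPM in the other 3. Ccl21 read 380 CPM in MCT-Fer-1 2 against 171 to 204 CPM. Il1rl1 was lower in MCT-Fer-1 4, with 19.6 CPM against 29.5 to 29.9 CPM, and this library was also the lowest of its group for the mast cell genes Cpa3, Cma1 and Ms4a2. Tsen34 read 2.74 CPM in MCT-Fer-1 4 against 1.12 to 1.29 CPM, and Kmt2e 172 CPM in MCT-Fer-1 2 against 179 to 180 CPM.

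Among Control libraries, Mmp2 read 247 CPM in Control 1 against 176 to 188 CPM, Akr1c14 79.9 CPM in Control 1 against 111 to 114 CPM, and Kcnk2 12.2 CPM in Control 1 against 16.3 to 16.8 CPM. Rgs5 read 76.2 CPM in Control 2 against 50.2 to 53.3 CPM, and Kmt2e 216 CPM in Control 3 against 197 to 199 CPM. Of these genes, Slc7a11 lost its call against Control without the library that stood apart.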

How the results depend on the processing

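Of the 1646 genes called in MCT-Fer-1 against Control, between 942 and 1645 were also called with the same sign under each alternative that kept the threshold, and 0 had the opposite sign. Against 1017 genes higher as reported, there were 648 without Control 4 and MCT-Vehicle 2 together and 462 at an adjusted p below 0.01. Against 629 lower, there were 1004 by DESeq2, 1033 by limma voom, 330 without those 2 libraries and 173 at an adjusted p below 0.01. Leaving out 1 library at a time gave 640 to 1087 higher and 313 to 656 lower. The cause was not tested, but such fits hold fewer samples. Other scalings moved the median of all genes by at most 0.013 (log2). For MCT-Fer-1 against MCT-Vehicle, with 0 calls as reported, DESeq2 called 237 genes and the fit of those 2 groups alone called 1, and leaving out 1 library gave 0 to 41, the highest without MCT-Vehicle 3. Ptgs2 changed sign without MCT-Fer-1 2, to -0.078 (edgeR adjusted p = 0.888), and its range over fits without 1 library reached 0.311, against 0.14 as reported. With the replicate number as a block, 1024 genes were higher, 652 lower and 0 called between the monocrotaline groups. Same-numbered libraries correlated at 0.018, 0.01, 0.077 and 0.102 in their deviations from the group means, and 2 of the 4 numbers correlated best with their own, so that the numbers were not taken as pairs.

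Depth set a floor of 0.042 to 0.259 CPM, so that a transcript at 0 in Control is not shown to be absent. The 4 libraries per group, unequal depth in MCT-Fer-1, heart transcripts in Control 4 and the lack of a ferrostatin-1 group without monocrotaline limit what these values can show.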
